A study of Saccharomyces cerevisiae with 36 samples.

Results

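The difference between 2 yeast strains in how ribosome footprints on each gene responded to 3 h of iron deprivation was measured across all genes. The comparison is the change from 0 h to 3 h in a double deletion mutant, cth1Δcth2Δ, minus the same change in its wild type parent, W303a, on the log2 scale. It uses 12 of the 36 libraries of the series, the Ribo-seq libraries of 4 groups with 3 biological replicates each. The groups are wild type at both times and cth1Δcth2Δ at both times. Both strains grew at 30 °C in Kaiser SC, a synthetic complete medium, and the 0 h cultures received no chelator. The 3 h cultures had spent that time in 100 µM bathophenanthroline disulfonate (BPS), which binds ferrous iron. Lysates made in cycloheximide were digested with RNase I, and the fragments under single ribosomes were taken from the 80S part of a sucrose gradient. Poly(A) RNA from other aliquots was hydrolysed and sequenced beside them (RNA-seq). The mutant lacks both genes in every comparison, so the share of either single deletion was not measured, and the labels do not say how many clones of it were used.

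CTH1 and CTH2, the second listed under its standard symbol TIS11, encode RNA-binding proteins with CCCH zinc fingers, related to mammalian tristetraprolin. They bind AU-rich elements after the stop codon of their target mRNAs, and in iron-starved yeast they are known for lowering mRNAs of iron-consuming processes such as respiration and the synthesis of heme and iron-sulfur proteins. TIS11 is itself switched on in iron deficiency by the Aft transcription factors, which also raise the genes of iron uptake.

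The DNA form of that element, TTATTTAT, is printed here as it occurs nearest the stop codon in genes whose footprint response differed between strains, because its presence is a property of the sequence that the counts did not use. Each line gives 30 bases of the coding strand in the R64 genome sequence of RefSeq, 5′ to 3′, with the element in capitals. In ILV3 and APE4 the capitals mark the shorter TATTTAT, since the 8-base form was not in their window of 300 nt after the stop codon.
ACO1, chrXII:735162-735191, minus strand: tttaaaggttaTTATTTATtttgtcttctg
SDH1, chrXI:169025-169054, minus strand: tatttatttagTTATTTATtaacttactat
SDH2, chrXII:52951-52980, minus strand: ctctatgactaTTATTTATttatcattggc
SDH4, chrIV:818609-818638, plus strand: tttactagtatTTATTTATtattatttatt
LEU1, chrVII:476210-476239, minus strand: aaccaaactacTTATTTATtattaatacgt
GLT1, chrIV:149171-149200, minus strand: agcttgagttaTTATTTATtttatgatcgt
ILV3, chrX:464335-464364, minus strand: atatatataaaTATTTATtatagtccattg
ISA1, chrXII:88190-88219, plus strand: tacctattcacTTATTTATtcatttactta
NFU1, chrXI:360849-360878, minus strand: tattcgtaccaTTATTTATtcacttattta
LIP5, chrXV:715505-715534, minus strand: tgcttgctggaTTATTTATttatatcttgt
HEM1, chrIV:929190-929219, plus strand: tttttttattcTTATTTATgtatgatactt
CBP3, chrXVI:148450-148479, plus strand: tatgaaaacacTTATTTATtcttcagatac
FMP10, chrV:553262-553291, plus strand: ttgccgtctacTTATTTATttatttattta
APE4, chrVIII:337831-337860, plus strand: ataatccggtaTATTTATtgccctcttttg
TIS11, chrXII:415737-415766, minus strand: actaaactcaaTTATTTATtatttttttct

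Footprints on a small group of iron-sulfur enzymes, their assembly factors and a heme synthesis enzyme fell within 3 h in wild type, and the mutant did not show that fall. The response differed between strains for 15 of 5315 features tested (0.282%) by edgeR's quasi-likelihood test at a Benjamini-Hochberg adjusted p of 0.05, the threshold used throughout. It was higher in the mutant for 14 genes (0.263% of features) and lower for 1, TIS11 (0.0188%). The 14 include aconitase, 3 of the 4 subunits of succinate dehydrogenase and 3 iron-sulfur enzymes of amino acid synthesis. In wild type all 14 fell and all 14 calls were past the threshold. In the mutant none of them was called by that test, 3 were at an unadjusted p under 0.05 (19.7% of all features were), and DESeq2 called 1, APE4, as a rise. The fold changes ranged from -3.16 to -0.87 (log2, median -2.22) in wild type and from -0.10 to 1.12 (median 0.39) in the mutant. The medians over all features were 0.02 and 0.00. These wild type and mutant values come from the libraries that gave the test and are its parts, not further evidence.

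The count of 15 rested on every library to some degree. It was 8 without wild type 0 h replicate 3 or without wild type 3 h replicate 2, 5 without wild type 3 h replicate 3 or without mutant 0 h replicate 2, and 6 without mutant 0 h replicate 1. It was 9 without wild type 0 h replicate 1 or mutant 3 h replicate 3, and 8 without mutant 3 h replicate 1. TIS11, LEU1, SDH1, ACO1 and SDH2 passed in 12 of 12 such fits. DESeq2 called 29, and 6 were called after all libraries were thinned to the smallest, TIS11, LEU1, SDH1, ACO1, ILV3 and GLT1.

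Depth differed widely among the 12 footprint libraries, with totals from 1085127 to 28491058 counts (median 5301500), a 26.3-fold range. The level that 3 counts can show lay between 0.105 and 2.76 CPM (each library's counts scaled to the same total). The 10 most abundant features took 15.2 to 21% of each library. CPM values of single genes are scaled by TMM factors, while the floors above and the mating type sums below use library totals alone. Since CPM values are shares of a whole culture, fewer cells with a transcript and less of it per cell cannot be told apart. Mating type a genes, which mark the W303a background, summed to 220 to 1021 CPM per library, and mating type alpha genes to 0.595 to 2.51 CPM.

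The deleted genes checked the labels. CTH1 (YDR151C) footprints were 30.2, 27 and 30.1 CPM in wild type at 0 h and 19.1, 33.5 and 22.3 CPM at 3 h. The mutant libraries held 3, 1 and 3 reads of it at 0 h and 0, 0 and 1 at 3 h. CTH1 was the 1 feature of 5315 that differed between strains at 0 h (0.0188%; log2 difference -5.77, adjusted p = 4.4e-05 by edgeR). Its response was not called as different (log2 difference -2.88, SE 1.06, unadjusted p = 0.0211). TIS11 (YLR136C), the inducible member of the pair, had 4.65, 11.3 and 3.01 CPM in wild type at 0 h and 348.8, 453.7 and 303.2 CPM at 3 h. In the mutant it had 4.65, 11.9 and 1.47 CPM at 0 h and 0.31, 0.312 and 0.91 CPM at 3 h. The strains overlapped at 0 h and lay far apart at 3 h. The mutant reads were 12, 14 and 17 at 0 h and 1, 3 and 9 at 3 h, a fall past the threshold in a gene that is deleted (log2 -3.02, SE 0.80, adjusted p = 0.0459), and their source was not tested. The strain difference in its response was -9.13 on the log2 scale (SE 1.04, adjusted p = 0.000669), a fitted value that rests on those few reads. The wild type rise was 6.11 (SE 0.69, adjusted p = 0.000127).

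**Figure D1:**
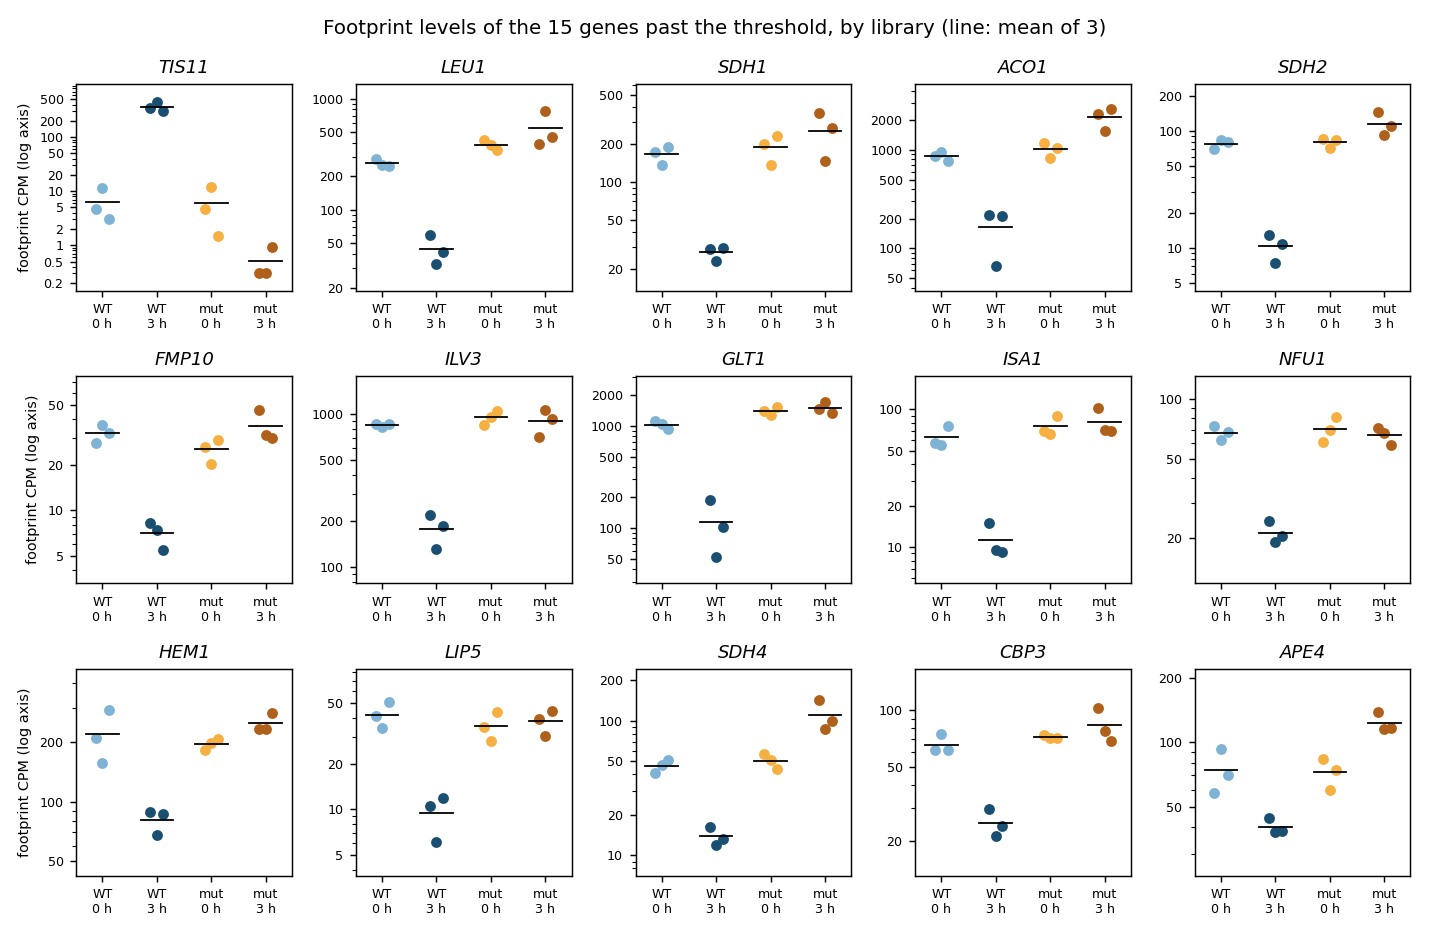
Footprint CPM (log axis) of the 15 genes past the threshold, by group; points are libraries and lines the mean of 3. In 14 panels the wild type 3 h libraries lie below the other groups, and in the TIS11 panel they lie above them.

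Aconitase and succinate dehydrogenase are both enzymes of the TCA cycle, and the second is also complex II of the respiratory chain. ACO1 (YLR304C), aconitase with a 4Fe-4S cluster, had 876, 942 and 769 CPM in wild type at 0 h and 218, 67.1 and 211 CPM at 3 h. In the mutant the values were 1186, 835 and 1050 CPM at 0 h and 2340, 1564 and 2612 CPM at 3 h. All 3 mutant libraries at 3 h were above all 3 at 0 h, and the wild type libraries went the other way. Wild type fell 5.2-fold, and the mutant change of 1.09 (log2, SE 0.36) had an adjusted p of 0.102. The strain difference was 3.46 (log2, SE 0.52, adjusted p = 0.0056).

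SDH1 (YKL148C), the flavoprotein subunit, had 173, 138 and 190 CPM in wild type at 0 h and 29, 23.2 and 29.8 CPM at 3 h. The mutant had 201, 137 and 232 CPM at 0 h and 357, 148 and 270 CPM at 3 h. The wild type groups were apart by 6.1-fold and the mutant groups overlapped, a strain difference of 3.04 (log2, SE 0.45, adjusted p = 0.0056). SDH2 (YLL041C), the iron-sulfur subunit, went from 69.8, 83.7 and 80.8 CPM to 12.9, 7.45 and 10.8 CPM in wild type. It went from 86.1, 71.1 and 83.7 CPM to 146, 91.7 and 110 CPM in the mutant. The mutant libraries at 3 h lay above those at 0 h without passing the test (log2 0.52, adjusted p = 0.453), and the strain difference was 3.41 (log2, SE 0.53, adjusted p = 0.00732). SDH4 (YDR178W), a membrane anchor, went from 41.1, 47.1 and 51.5 CPM to 16.4, 12 and 13.2 CPM in wild type. In the mutant it went from 57, 50.8 and 44.2 CPM to 144, 87.7 and 99.4 CPM. Its strain difference of 2.87 (log2, SE 0.55, adjusted p = 0.0332) was split between a fall in wild type (-1.74, adjusted p = 0.0149) and a higher level in the mutant that was not called (1.12, adjusted p = 0.115).

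The other anchor, SDH3 (YKL141W), fell outside the threshold. It went from 77.5, 76.8 and 87.4 CPM to 26, 18.6 and 22.3 CPM in wild type, and from 115, 103 and 101 CPM to 129, 84.6 and 102 CPM in the mutant. The wild type groups did not overlap and the mutant groups did, with a strain difference of 1.83 (log2, SE 0.46, adjusted p = 0.228). SDH9 is a close copy of SDH1 and SHH3 of SDH3, so reads could be shared within each pair. Whether the SDH4 counts hold reads of a similar gene was not tested either.

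The 3 iron-sulfur enzymes of amino acid synthesis on the list of called genes were among the most abundant of the group. LEU1 (YGL009C), isopropylmalate isomerase of leucine synthesis, had 288, 256 and 247 CPM in wild type at 0 h and 59.8, 33 and 41.6 CPM at 3 h. The mutant had 428, 380 and 346 CPM at 0 h and 394, 776 and 451 CPM at 3 h. Wild type fell 5.85-fold while the mutant groups overlapped (strain difference 3.04, log2, SE 0.40, adjusted p = 0.00208). GLT1 (YDL171C), glutamate synthase, had 1106, 1041 and 932 CPM in wild type at 0 h and 190, 51.6 and 101 CPM at 3 h. The mutant values were 1400, 1282 and 1523 CPM at 0 h and 1446, 1715 and 1345 CPM at 3 h. Its 8.95-fold fall in wild type was the largest of the 14, and its mutant change was 0.10 (log2, SE 0.38). ILV3 (YJR016C), dihydroxyacid dehydratase of valine and isoleucine synthesis, went from 861, 822 and 862 CPM to 219, 130 and 184 CPM in wild type. In the mutant it had 850, 959 and 1053 CPM at 0 h and 708, 1062 and 932 CPM at 3 h, overlapping ranges (log2 -0.08, SE 0.25). The strain differences were 3.26 for GLT1 (SE 0.55, adjusted p = 0.0126) and 2.17 for ILV3 (SE 0.36, adjusted p = 0.0121). Both missed the threshold without wild type 3 h replicate 3, mutant 0 h replicate 1 or mutant 0 h replicate 2.

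GLT1 and LEU1 were the 2 of the 14 genes whose strains did not overlap at 0 h, the mutant being higher in each. The other 12 overlapped, as did 86.3% of all features, and none of the 14 was called between strains at 0 h by edgeR or DESeq2, and 0 were at an unadjusted p under 0.05 (2.9% of all features were).

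Genes for making iron-sulfur clusters, lipoic acid and heme formed another group. ISA1 (YLL027W), a mitochondrial factor that helps mature 4Fe-4S proteins, had 57.4, 54.9 and 75.9 CPM in wild type at 0 h and 14.9, 9.58 and 9.25 CPM at 3 h. The mutant had 70.2, 66 and 89.3 CPM at 0 h and 103, 70.5 and 69.8 CPM at 3 h. The strain difference was 2.57 (log2, SE 0.46, adjusted p = 0.0227). NFU1 (YKL040C), which takes part in handing clusters to mitochondrial enzymes, had the smallest difference of the 14 at 1.56 (log2, SE 0.30, adjusted p = 0.0332). It went from 72.9, 61.9 and 68.3 CPM to 24.3, 19.2 and 20.5 CPM in wild type, and in the mutant it had 60.5, 70.3 and 80.8 CPM and then 71.3, 67.3 and 58.9 CPM. The mutant ranges of both genes overlapped between times.

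LIP5 (YOR196C), the iron-sulfur enzyme of lipoic acid synthesis, had low levels throughout, with 41.1, 34 and 50.4 CPM in wild type at 0 h and 10.5, 6.12 and 11.9 CPM at 3 h. The mutant held 34.9, 27.9 and 43.6 CPM at 0 h and 39.4, 30.4 and 44.4 CPM at 3 h, nearly the same range. The strain difference was 2.21 (log2, SE 0.42, adjusted p = 0.0332). HEM1 (YDR232W), 5-aminolevulinate synthase and the entry step of heme synthesis, went from 212, 157 and 293 CPM to 88.9, 68.1 and 87.2 CPM in wild type. In the mutant it had 183, 200 and 208 CPM and then 234, 233 and 284 CPM. Its strain difference was 1.79 (log2, SE 0.34, adjusted p = 0.0332), and it passed in 1 of 12 fits that left out a library. LIP5 passed in 3, ISA1 in 6, NFU1 in 2 and SDH4 in 1 of these 12 fits.

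The remaining 3 genes are not known to encode iron-sulfur or heme enzymes. FMP10 (YER182W), a mitochondrial protein of unknown function, went from 27.9, 36.6 and 32.7 CPM to 8.27, 7.45 and 5.49 CPM in wild type. The mutant had 26.4, 20.3 and 29.3 CPM at 0 h and 46.2, 31.5 and 30.1 CPM at 3 h. This 4.54-fold wild type fall was close to the 4.38-fold fall of LIP5, and the strain difference was 2.66 (log2, SE 0.43, adjusted p = 0.0113), past the threshold in 10 of 12 fits that left out a library. CBP3 (YPL215W), which helps make cytochrome b for the bc1 complex, went from 61.2, 74.1 and 60.9 CPM to 29.6, 21.3 and 24.2 CPM in wild type. Its mutant libraries held 74.1, 71.1 and 71 CPM and then 102, 77.6 and 68.4 CPM. APE4 (YHR113W), an aspartyl aminopeptidase, had 58.1, 93.3 and 70.4 CPM in wild type at 0 h and 44.1, 38.1 and 38.4 CPM at 3 h. Its mutant libraries went from 83, 60.1 and 74 CPM to 138, 115 and 116 CPM. APE4 thus had the smallest wild type fall of the 14 at 1.83-fold and a mutant change of 0.76 (log2, adjusted p = 0.0815). The strain differences were 1.57 for CBP3 (SE 0.31, adjusted p = 0.0436) and 1.64 for APE4 (SE 0.33, adjusted p = 0.045). CBP3 passed in 1 and APE4 in 0 of 12 fits that left out a library.

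At 3 h every mutant library of all 14 genes lay above every wild type library, a separation that 7.6% of the features tested showed. Every wild type library at 3 h lay below every one at 0 h, which held for 16% of features. For 8 of the 14 the mutant ranges at 0 h and 3 h overlapped, as they did for 67% of features. The test used these same values.

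Within each strain the response to BPS was broader than the difference between strains. Wild type changed in 291 features (5.48%), 195 higher (3.67%) and 96 lower (1.81%), and the mutant in 196 (3.69%), 152 higher (2.86%) and 44 lower (0.828%). These fits were unpaired, and with the replicate number as a block the wild type count was 411 and the mutant count 332. The mutant count was 69 without 0 h replicate 2, 47 without 0 h replicate 3, 101 without 0 h replicate 1, 114 without 3 h replicate 1 and 79 without 3 h replicate 2. The wild type count was 122, 171 and 152 without 0 h replicates 1, 2 and 3, and 166 without 3 h replicate 2. Of the 195 features that rose in wild type, 104 also rose in the mutant, and the medians were 2.08 and 1.70 (log2). Of the 96 that fell in wild type, 17 also fell in the mutant, and the medians were -1.98 and -0.54. These features were chosen on the wild type libraries, and a median over them is drawn toward larger wild type changes on either side. The test of the difference itself was past the threshold for 14 of the 96 and for 1 of the 195, TIS11.

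**Figure D2:**
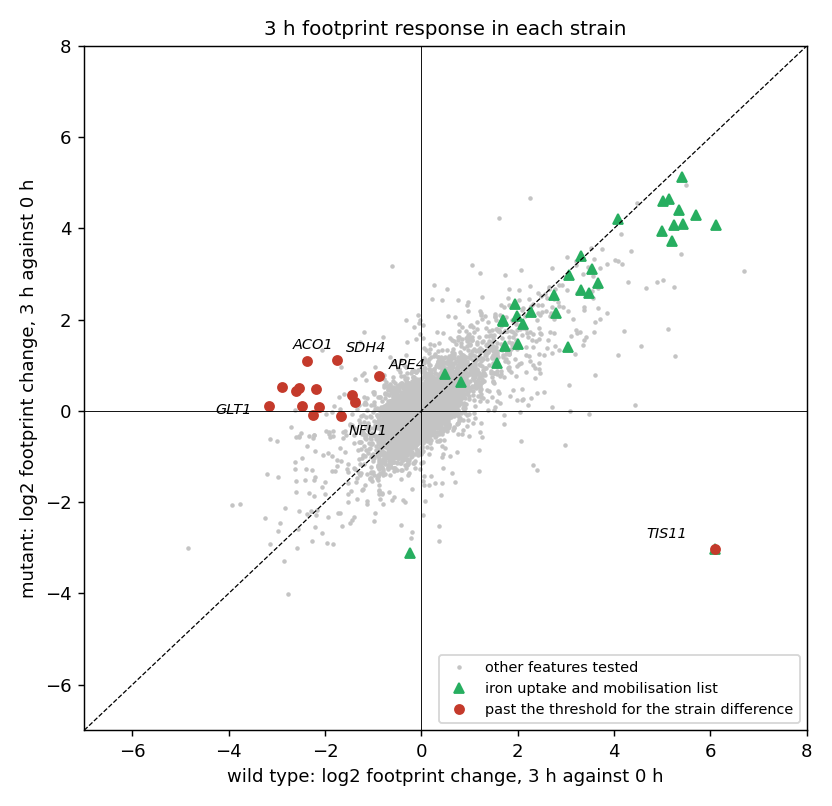
Log2 footprint change from 0 h to 3 h in wild type (x axis) and in the mutant (y axis); each point is a feature, and the dashed line marks equal changes. The 14 genes with a higher response in the mutant lie left of 0 and near or above 0 on the mutant axis, and the iron uptake list except TIS11 and CTH1 lies at positive changes in both strains.

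Genes of iron uptake rose in both strains. Of 33 listed genes of iron uptake and mobilisation, 25 rose in wild type (median 3.31, log2) and 25 rose in the mutant (median 2.58), with 1 fall in the mutant, TIS11. The strain difference had a median of -0.51 and was above 0 for 7 of 33, beside 2367 of 5315 features overall (44.5%, median -0.06). TIS11 was the 1 member called, and 2 were at an unadjusted p under 0.05, both of them deleted genes. SIT1 (YEL065W), a siderophore transporter, changed by 5.19 in wild type and 3.71 in the mutant (both called), a difference of -1.48 that was not (SE 0.74, unadjusted p = 0.062).

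The gene lists placed the called genes in their pathways. Over all features 0.263% were called higher in the mutant and 3.71% had an unadjusted p under 0.05. The lists' counts are set against these shares. Since the lists were chosen with earlier results of these data known, the counts describe them and are not a test of enrichment. Of 17 TCA cycle genes tested, 4 had a higher response in the mutant (ACO1, SDH1, SDH2 and SDH4), 15 had an estimate above 0 (44.5% of all features did), and the median was 0.70 (log2). DESeq2 called 6 of the 17. In wild type 6 of them fell (1.81% of all features did) and 1 rose, and in the mutant 1 rose, or 4 with the replicate number as a block (2.86% of all features rose without it). Of 27 respiratory chain and cytochrome c genes, 3 were called, the same SDH genes, 22 were above 0 and the median was 1.41, and DESeq2 called 5. In that list 15 genes fell in wild type (median -1.86) and 0 in the mutant (median -0.65), where 0.828% of all features fell. In the mutant 9 of the 27 changes were at an unadjusted p under 0.05, beside 19.7% of all features, and DESeq2 called 0 falls. The list of 6 iron-sulfur enzymes of amino acid and biotin synthesis had 3 called genes (LEU1, GLT1 and ILV3), 6 of 6 above 0 and a median of 1.91, and DESeq2 called the same number.

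Enzymes of the same amino acid pathways that use no iron were also listed, and their difference from the iron-sulfur list was not tested. Of 18 such genes 0 were called by edgeR or DESeq2, which is near the 0.282% of all features, and 1 had an unadjusted p under 0.05, near the 3.71% of all features. It was LEU4 (isopropylmalate synthase, log2 difference 1.29, SE 0.60). Their median was 0.21, and 0 fell in wild type, or 2 with the replicate number as a block. ILV2 and BAT1, which act before and after ILV3 in the branched-chain pathway, had differences of 0.68 (SE 0.37) and 0.66 (SE 0.36) that were not called.

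Among 27 genes of iron-sulfur assembly, ISA1 and NFU1 were called, 20 were above 0 and the median was 0.31, and DESeq2 called 3. YFH1, frataxin, was at 1.42 (SE 0.37, adjusted p = 0.235). Of 19 heme genes tested HEM1 was called, 18 were above 0 and the median was 0.93, and DESeq2 called 3. Of 15 iron-sulfur proteins of DNA, RNA and translation 0 were called by edgeR or DESeq2, 2 had an unadjusted p under 0.05, and the median of 0.11 became negative after thinning. The named members of that list were RLI1, a ribosome recycling factor (1.17, SE 0.41), DPH2, of diphthamide synthesis (1.71, SE 0.66), and POL3, the catalytic subunit of DNA polymerase delta (-0.47, SE 0.33). Most of the remaining lists are small, and 0 calls in them is near the 0.282% over all features and is not a result about them. Over all features 3.71% were at an unadjusted p under 0.05. No gene was called by edgeR or DESeq2 among 8 di-iron and heme enzymes of lipid and sterol synthesis (1 at an unadjusted p under 0.05, median -0.01), 12 HAP and other respiratory regulators (1, median 0.11) or 19 mRNA decay genes (1, median -0.01). Nor was any called in the larger list of 135 genes named as cytosolic ribosomal proteins (0 at an unadjusted p under 0.05, median 0.07). Among 10 ribonucleotide reductase genes edgeR called 0, with 4 at an unadjusted p under 0.05, above that 3.71% share, and DESeq2 called 2. Among 10 genes of iron storage and sensing edgeR called 0, with 2 at an unadjusted p under 0.05, and DESeq2 called 1. Among 8 auxotrophy marker genes and 6 mating type a genes neither tool called any, with 2 and 0 at an unadjusted p under 0.05.

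**Figure D3:**
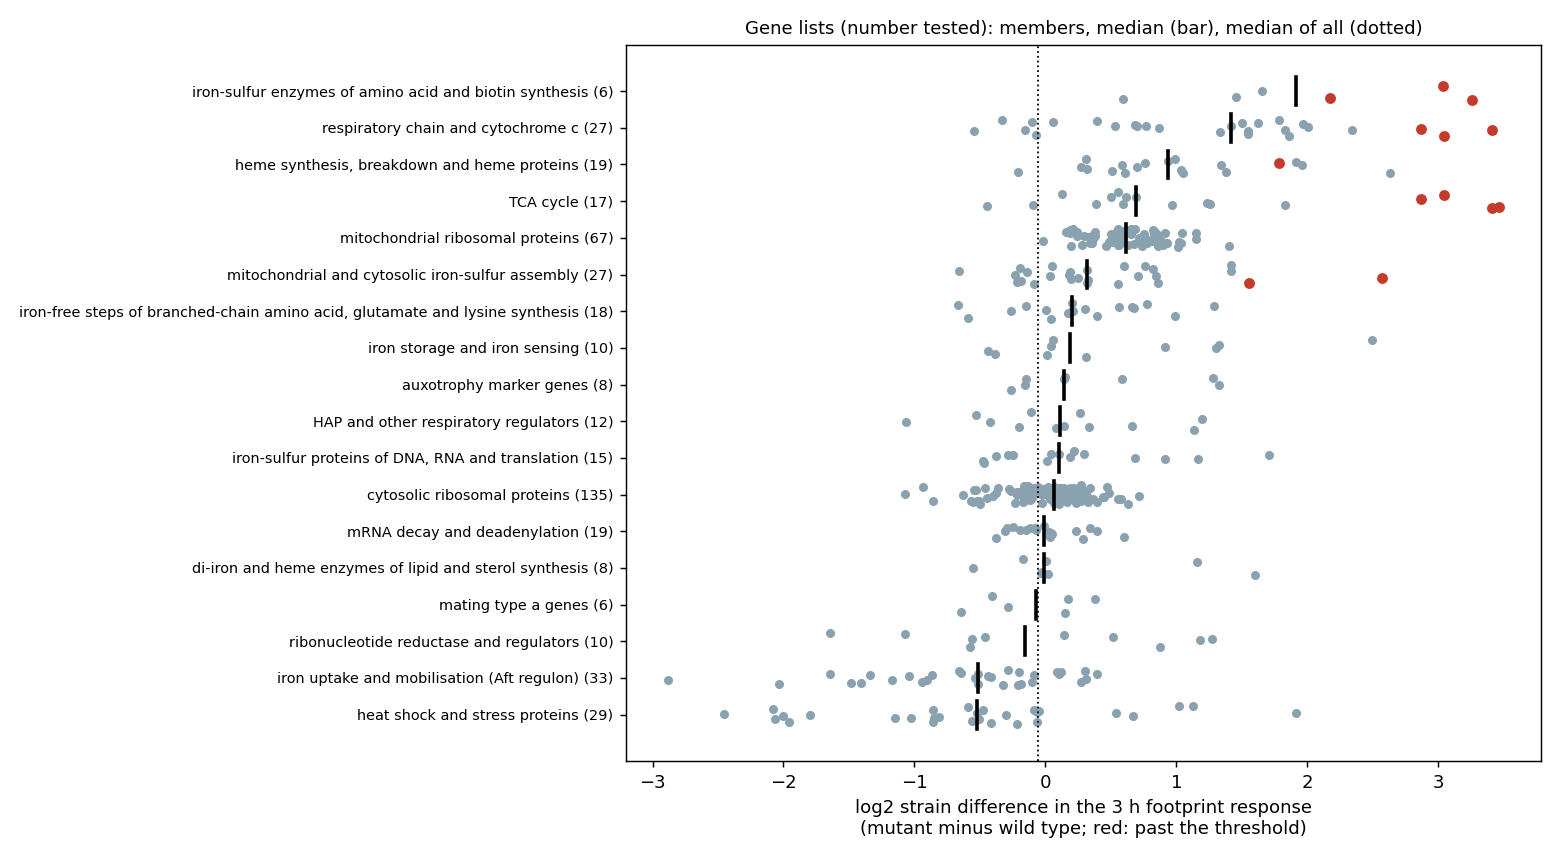
Log2 strain difference in the 3 h footprint response of each list member, with the number tested in brackets, the list median (bar) and the median of all features (dotted). Red points passed the threshold; TIS11, at -9.13 in the iron uptake list, is off the scale, and the list of mating type alpha genes, with 1 gene tested, is not drawn.

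The genes nearest outside the threshold included 2 heme genes, CCP1 and HEM15, that fell in wild type and whose mutant ranges overlapped between times. CCP1 (YKR066C), the heme enzyme cytochrome c peroxidase, went from 78.3, 58.4 and 118 CPM to 16.8, 10.6 and 14 CPM in wild type. The mutant held 91.5, 68.6 and 148 CPM and then 104, 72.4 and 137 CPM, and the strain difference was 2.63 (log2, SE 0.54, adjusted p = 0.0505). HEM15 (YOR176W), ferrochelatase, went from 114, 104 and 100 CPM to 46.6, 35.1 and 22.9 CPM in wild type, beside 108, 96.5 and 127 CPM and then 172, 143 and 112 CPM in the mutant (1.96, SE 0.41, adjusted p = 0.0532). CCC1 (YLR220W), which imports iron into the vacuole, differed from these, with lower values at 3 h in both strains and higher values in the mutant than in wild type at 0 h. It went from 59.7, 66.3 and 76.9 CPM to 21.1, 16.8 and 16.8 CPM in wild type, a called change of -1.89. The mutant went from 90, 110 and 95.3 CPM to 73.2, 54.7 and 71.7 CPM, a change of -0.56 that was not called (strain difference 1.33, SE 0.28, adjusted p = 0.0706). AIM32, a thioredoxin-like iron-sulfur protein (2.02), PYC1, pyruvate carboxylase (1.56), and RTC5 (1.20) followed with adjusted p of 0.113, 0.21 and 0.235. Of the 10 features nearest outside the threshold, 7 had a higher response in the mutant, and several of them passed under other settings. DESeq2 called CCP1, HEM15, CCC1, PYC1 and SDH3, total-count scaling called CCP1 and HEM15, and the fit of only the groups compared called CCP1, HEM15 and SDH3.

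The AU-rich element was common among the called genes. The window of 300 nt past the stop codon, read on the coding strand, held it in 12 of the 14 genes higher in the mutant (85.7%), beside 384 of the 5275 features tested that have such a window (7.28%). Its reverse complement ATAAATAA, present in 349 of 5275 windows (6.62%), was in 0 of the 14. The 7-base TATTTAT was in 14 of 14, beside 17.8% of windows. Counting overlaps, 11 of the 14 held at least 2 copies. The most, 13, were after GLT1, between bases 14 and 80 past the stop codon. SDH1 held 7 (bases 164 to 203), ACO1 5 (32 to 181) and FMP10 5 (14 to 30). The element of TIS11 itself begins 46 bases after its stop codon. A match describes the sequence and does not show binding. The window is a fixed length of genome sequence and transcript ends were not used, so a site may lie past the end of the mRNA. The first copies after SDH2, SDH1 and NFU1 begin at bases 162, 164 and 191.

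The strain difference moved with the number of copies. The 4891 features with no copy had a median of -0.07 (log2), with 2 called higher, ILV3 and APE4. The 318 with 1 copy had a median of 0.10, with 1 called higher, CBP3, and 1 lower, TIS11. The 46 with 2 copies had a median of 0.76, with 2 called higher, ISA1 and SDH2, and 38 above 0. The 20 with 3 or more copies had a median of 1.69, with 9 called higher and 17 above 0. In those 20 the wild type median was -1.70, with 12 falls, and the mutant median was 0.18. The 329 features with ATAAATAA and no TTATTTAT had a median of -0.03.

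**Figure D4:**
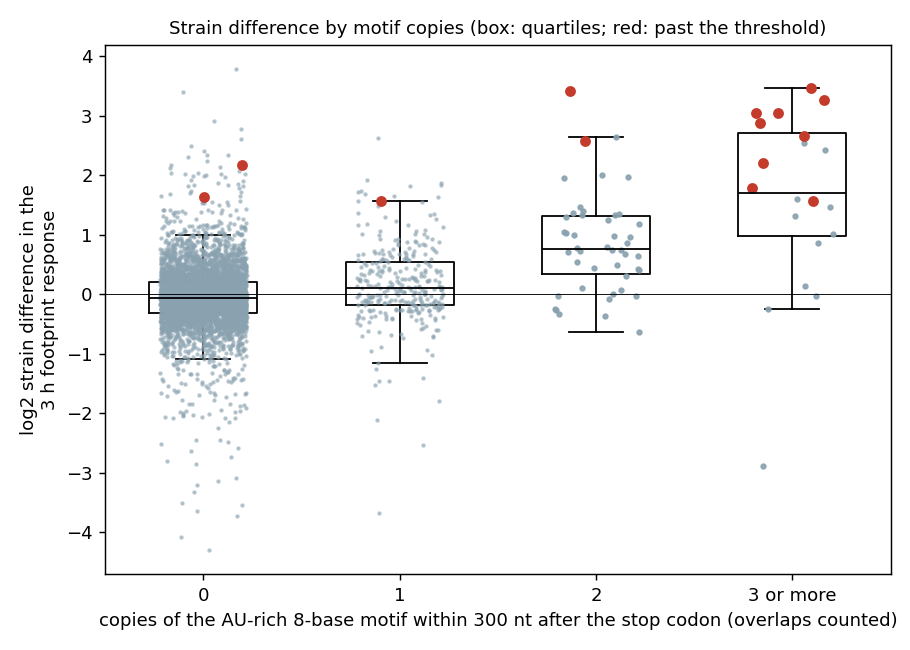
Log2 strain difference in the 3 h footprint response by the number of TTATTTAT copies within 300 nt after the stop codon; points are features, boxes show quartiles and red points passed the threshold. The medians are -0.07, 0.10, 0.76 and 1.69 from no copy to 3 or more; TIS11, at -9.13 with 1 copy, is off the scale.

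Among the features that fell in wild type, 42 of 96 carried the element (43.8%), and of the 195 that rose 17 did (8.72%). The wild type median of the 42 was -2.10 and the mutant median -0.43, and 12 of them had a called strain difference. The 52 without it that have a window had medians of -1.60 and -0.58, and 2 had a called difference. Of the 20 genes with 3 or more copies, 10 were not called as higher apart from CTH1, which is deleted, and except for ERG11 their names were taken after their values were seen. Estimates were as high as 2.54 for CIR2, 2.42 for SDH9 (SE 0.82), 1.60 for ERG11 and 1.46 for LYS4. They were near or below 0 for WHI4 (0.13), SMN1 (-0.03) and FBA1 (-0.24).

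RNA-seq of the same lysates gave a second measure of each response, in libraries of 186283 to 6571727 counts (median 1581400). The level that 3 counts can show in them lay between 0.457 and 16.1 CPM. By edgeR 1 of 6006 features (0.0167%) had a strain difference in the RNA response, TIS11 (log2 difference -5.72, SE 0.74, adjusted p = 0.000572), and 0 did without mutant 0 h RNA replicate 3 or after thinning, beside 2 without mutant 0 h RNA replicate 1. Of the 14 genes 0 were called in RNA by edgeR, 11 were at an unadjusted p under 0.05 (2.8% of all features were), and all 14 had an estimate above 0. DESeq2 called 6 features, 4 of them among the 14, ACO1, LEU1, LIP5 and NFU1. The 14 had RNA differences of 0.56 to 2.92 (median 1.96), beside 1.56 to 3.46 (median 2.61) in footprints. They were chosen on their footprint differences, which draws the footprint side of this comparison upward. Over all features the RNA median was -0.08.

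Single genes showed how the assays compared. ACO1 RNA was 720, 844 and 613 CPM in wild type at 0 h and 146, 43 and 93.3 CPM at 3 h, and in the mutant 757, 869 and 1303 CPM and then 1152, 555 and 1206 CPM. It thus fell in each wild type library and overlapped between times in the mutant, with a difference of 2.92 (log2, SE 0.64, adjusted p = 0.195). NFU1 RNA was 112, 121 and 113 CPM and then 43.9, 32.2 and 41.8 CPM in wild type, beside 100, 61.6 and 60.8 CPM and then 107, 133 and 98.4 CPM in the mutant. Its RNA difference of 2.09 (SE 0.41, adjusted p = 0.126) was above its footprint difference of 1.56. FMP10 RNA went from 58, 33.8 and 53.9 CPM to 32.8, 37 and 28.1 CPM in wild type and from 62.9, 67.8 and 36.9 CPM to 57.1, 88.7 and 62.7 CPM in the mutant. These ranges overlapped between times in both strains, while its wild type footprints did not. The wild type overlap in RNA rested on 0 h replicate 2 (33.8 CPM), a library of 245994 counts in which 3 counts were 12.2 CPM. The other wild type 0 h values, 58 and 53.9 CPM, lay above every wild type 3 h value.

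Translational efficiency, the footprint change relative to the RNA change, did not separate the strains past the threshold. By edgeR 0 of 5290 features were called, with 23 at an unadjusted p under 0.05 (0.435%), and DESeq2 was not run on this model. Of the 14 genes 1 was among these 23, FMP10 (log2 difference 1.63, SE 0.62, unadjusted p = 0.0136), and 11 had an estimate above 0. The range was -0.53 for NFU1 to 1.66 for SDH4 (SE 0.87, unadjusted p = 0.0656), with a median of 0.81 beside 0.02 over all features. These estimates contain the footprint values on which the 14 were chosen, which draws them upward. HEM1 had 1.22 (SE 0.68, unadjusted p = 0.0814) and ACO1 0.54 (SE 0.85). The 0.435% at an unadjusted p under 0.05 is far below the fraction of 0.05 that no differences at all would give. This test was therefore conservative. With that and standard errors of this size, a part of the footprint difference beyond RNA was not detectable, which does not show that there was none.

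**Figure D5:**
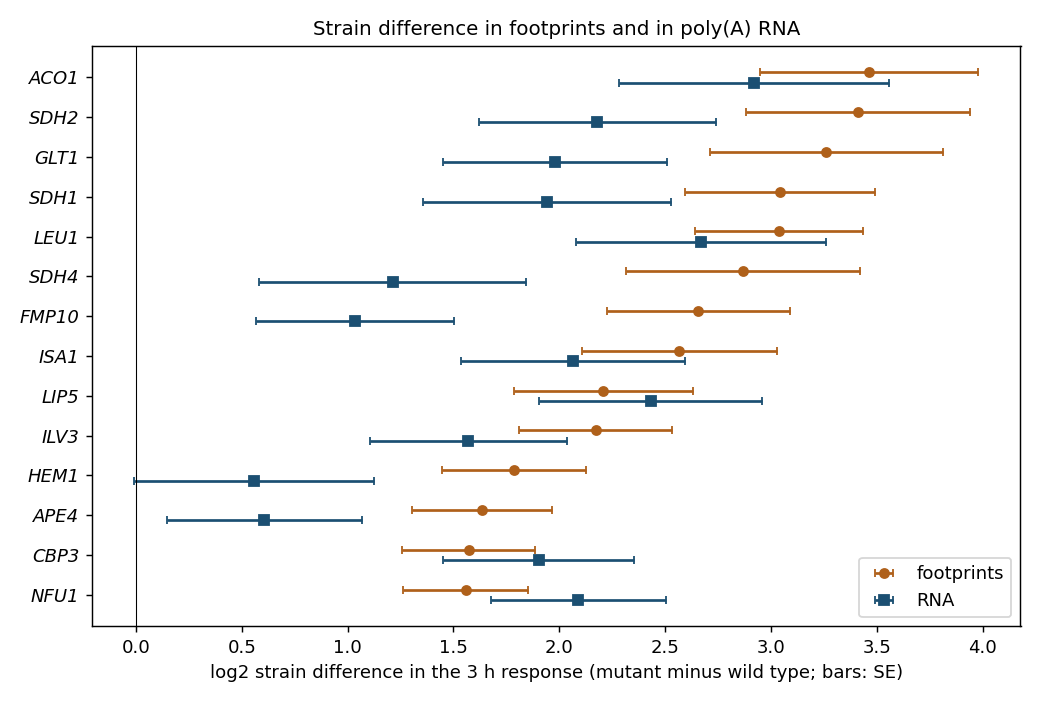
Log2 strain difference in the 3 h response (mutant minus wild type) of 14 genes in footprints and in RNA. Bars are the approximate standard error derived from the F statistic. The footprint value is above the RNA value for 11 genes and below it for LIP5, CBP3 and NFU1. The 14 genes were chosen on their footprint values, which draws these upward.

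At 6 h the same strain difference was tested against the same 0 h libraries, so the 2 times are not independent, and their values are given side by side. By edgeR 158 of 5315 features (2.97%) differed in the 6 h response, 118 higher in the mutant (2.22%) and 40 lower (0.753%), and scaling by total counts gave 140 and 17. This count was 348 without wild type 6 h replicate 1. It lay between 81 and 100 without wild type 0 h replicates 1, 2 or 3, wild type 6 h replicate 3, mutant 0 h replicates 1 or 2 or mutant 6 h replicate 2. All 14 genes were among the 118. Their differences were 1.58 to 4.15 (log2, median 2.40) at 6 h and 1.56 to 3.46 (median 2.61) at 3 h. The genes were chosen on the 3 h values, which draws that side upward.

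The levels behind these values differed between the times. ACO1 footprints at 6 h were 842, 1252 and 1074 CPM in wild type and 10316, 14636 and 8472 CPM in the mutant. Wild type was thus within or above its 0 h range while the mutant was far above its own. SDH2 footprints at 6 h were 27.6, 13.9 and 25.1 CPM in wild type, still below 0 h, and 530, 504 and 162 CPM in the mutant. FMP10 had 3.94, 5.99 and 10.7 CPM in wild type and 58.8, 87.8 and 81.9 CPM in the mutant, and GLT1 32.8, 91.8 and 72.6 CPM beside 999, 668 and 821 CPM. For GLT1 the mutant at 6 h was therefore below its 0 h range of 1282 to 1523 CPM, and the wild type remained lower still.

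The 6 h difference minus the 3 h difference, which uses no 0 h library, was past the threshold for 0 of 5315 features by edgeR, with 344 at an unadjusted p under 0.05 (6.47%) and 16 called by DESeq2. Without mutant 6 h replicate 1 edgeR called 15. Of the 14 genes 7 had a larger estimate at 6 h and 7 at 3 h, from -0.69 to 1.1 (log2, median -0.00), and 1 was at an unadjusted p under 0.05. The 14 were chosen on the 3 h difference that is subtracted here, which draws these estimates downward. A change of the strain difference between 3 h and 6 h was not detected for any of the 14, which does not show that there was none.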

How the data were processed

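The authors deposited 1 table of whole-number read counts per library for 7127 features, and the counts were used as unnormalised. Per the submitters' processing notes cutadapt 3.4, Bowtie 1.1.2, STAR 2.7.9a and build R64 were used; the counting program, strand use and the treatment of reads with several matches are not given in the sources used here. Counts of close paralogues and overlapping genes are therefore uncertain. Names came from the R64 annotation, which matched 6047 features and left 1080 unmatched.

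Counts were tested with edgeR 4.0.16 (quasi-likelihood, limma 3.58.1, R 4.3.3) after filterByExpr with a minimum count of 10, which kept 5315 Ribo-seq and 6006 RNA-seq features. TMM factors were set within each assay, and all 18 libraries of an assay shared 1 fit of the group means, with 12 degrees of freedom left for the spread. Translational efficiency was tested in 1 model of both assays on 5290 features. Benjamini-Hochberg adjustment ran over all features of a comparison. In simulated counts of independent libraries, the median estimates for the largest rises put in lay near the true values. Same-numbered libraries here deviated together, which the simulation left out, so it does not give the error rates of these data. Alternatives were DESeq2 1.42.0, other scalings, no filter, only the groups compared, thinning, blocks and leaving out each library. The quasi-likelihood fit reports no standard errors. Each was derived as the size of the log2 estimate divided by the square root of the test's F statistic. They include the spread between replicates but are approximate, and least reliable for genes with very few reads, such as the deleted genes in the mutant. Floors of 3 counts cover counting error only.

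Replicates were labelled biological, and pairs of replicates differed by 3.88 to 228.2 times the sampling noise (chi-square per degree of freedom) among these Ribo-seq libraries. Whether replicate numbers pair libraries was checked by the correlation of same-numbered deviations. In wild type at 0 h and 3 h it was above 0.1 in 3 of 3 pairs (mean r = 0.23) and in the mutant in 3 of 3 (mean r = 0.303). The numbers may therefore pair those libraries, but differently numbered libraries were not compared. The main fits used no block.

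Named genes were those past the threshold, the deleted genes, up to 3 members of each list and the 10 features nearest outside the threshold, by smallest p, with others marked in the text. Genes, lists and tests were chosen with earlier results of these data known.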

Additional observations from a re-analysis of the deposited data

Results flagged for a closer look

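The 15 genes below met the criterion that 2 groups' effects under the same contrast differ by a test of the difference itself, here the strains' 3 h footprint responses by edgeR's interaction test. The log2 differences, mutant minus wild type, were -9.13 for TIS11, 3.46 for ACO1, 3.41 for SDH2, 3.26 for GLT1, 3.04 for LEU1, 3.04 for SDH1, 2.87 for SDH4 and 2.66 for FMP10. They were 2.57 for ISA1, 2.21 for LIP5, 2.17 for ILV3, 1.79 for HEM1, 1.64 for APE4, 1.57 for CBP3 and 1.56 for NFU1. TIS11 stands apart because the mutant lacks the gene. Groups of 3 libraries were not examined for single outlying libraries.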

How the results depend on the processing

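The count of 15 features with a strain difference in the 3 h footprint response was 14 with RLE factors, 17 with total-count scaling, 13 without the low-count filter and 21 with only the groups compared. It was 29 with DESeq2 (26 higher, 3 lower), 6 after thinning and 5 to 13 without 1 library. Same-numbered libraries deviated together in 14 of 18 pairs (mean r = 0.275), short of every pair, and the replicate number as a block gave 18 calls (16 higher, 2 lower), CCP1 and HPF1 among them. The block gave 411 for the wild type 3 h response, 332 for the mutant, 242 for the 6 h difference, and no other call of the 14 genes changed with it. DESeq2 gave 447 (wild type), 428 (mutant), 266 (6 h), 16 (6 h minus 3 h) and 6 (RNA). Only the groups compared gave 392 for the mutant and 105 for the 6 h difference, and thinning gave 62 for the 6 h difference and 0 in RNA. Without 1 library the counts were 122 to 292 (wild type), 47 to 198 (mutant), 81 to 348 (6 h), 0 to 15 (6 h minus 3 h), 0 to 2 (RNA), 1 to 1 (strains at 0 h) and 0 to 0 (translational efficiency). Total-count scaling moved the all-feature median of the 6 h difference from -0.10 to 0.03 and of 6 h minus 3 h from -0.04 to 0.07. The share of the 14 genes with the AU-rich element was 85.7% with windows of 200 or 500 nt, and 100% with TATTTAT. The cause of each move was not tested, except that thinning and leaving out a library use fewer reads. The 26.3-fold range of depth limits low genes most. No called result changed direction; of the list medians, that of heat shock proteins did (0.38 without wild type 3 h replicate 2), that of iron-sulfur proteins of DNA, RNA and translation did (-0.14 after thinning), and 6 medians within 0.2 of 0 changed sign under at least 1 setting.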

Other observations

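None of the 67 genes listed by name as mitochondrial ribosomal proteins was called, but nearly all their estimates had 1 sign. Their strain difference in the 3 h footprint response was above 0 for 66 of 67, with a median of 0.62 (log2) beside -0.06 over all features, and the median lay between 0.45 and 0.77 without any 1 library. By edgeR and by DESeq2 0 of them were called, and 19 were at an unadjusted p under 0.05, beside 3.71% of all features. The 3 with the smallest p were MRP4 (1.15, SE 0.33), MRP7 (1.01, SE 0.34) and RSM25 (1.04, SE 0.35). The median change of the list was -0.56 in wild type, with 1 gene called lower (MRP4) and 1 higher (MRP8), and 0.08 in the mutant. The list of cytosolic ribosomal proteins had a median strain difference of 0.07, with 80 of 135 above 0. Membership of both lists was by name, which need not make every member, MRP8 and RPP1 among them, a ribosomal protein.

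In the other direction, 3 of the 10 features nearest outside the threshold had a lower response in the mutant. HPF1 (YOL155C), a cell wall mannoprotein, went from 62, 85.5 and 149 CPM to 471, 1612 and 1547 CPM in wild type and from 126, 147 and 170 CPM to 266, 264 and 237 CPM in the mutant. Its strain difference was -2.80 (SE 0.64, adjusted p = 0.113 by edgeR), and it was called by DESeq2 (adjusted p = 0.00527). PAI3, an inhibitor of the vacuolar protease proteinase A, had -2.02 and YBL029W -1.48, the second of which DESeq2 also called. The list of 29 heat shock and stress proteins had a median of -0.52 with 5 above 0, and 0 were called by edgeR or DESeq2, with 2 at an unadjusted p under 0.05. That median was 0.38 without wild type 3 h replicate 2, so its direction rests on that library. HSP12, a small membrane-associated stress protein, had a strain difference of -2.45 (SE 1.08), with a called wild type rise of 4.22.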
